A study of Mus musculus with 6 samples.

Results

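The NRF2 gene with its targets and other antioxidant enzymes, 10 genes in all, were followed in TKPTS cells that overexpressed HNF3α. They were Nfe2l2, Hmox1, Nqo1, Gclc, Gclm, Srxn1, Txnrd1, Slc7a11, Gpx4 and Sod2, chosen by gene name, and all 10 were found among the 29595 genes of the expression table. TKPTS is an established line of mouse renal proximal tubule cells. Cells in 6-well plates received either pcDNA3.1-Hnf3a-Flag, a plasmid that carries Flag-tagged HNF3α (the Hnf3a group, 3 libraries), or pcDNA3.1-Flag, the plasmid without that insert (the pcDNA group, 3 libraries, genotype WT). HNF3α is the forkhead transcription factor encoded by Foxa1. RNA was collected 24 h after transfection, so each library averages transfected and untransfected cells, and no TGF-β1 treatment is named for these samples. Nothing states that the 3 libraries of a group came from separate cultures, so the p-values measure only the spread between these libraries, which may be technical.

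NRF2, the product of Nfe2l2, is a transcription factor that is held in check by KEAP1, which hands it to a ubiquitin ligase for degradation. Under oxidative or electrophilic stress it escapes degradation, enters the nucleus and, with a small MAF protein, binds antioxidant response elements at genes for glutathione synthesis, thioredoxin reduction, quinone reduction and haem breakdown. Because the control lies largely in protein stability, the activity of the pathway is usually read from its target transcripts. Proximal tubule cells are rich in mitochondria and are known for their exposure to oxidants during ischemia and reperfusion.

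The libraries held 60473818 to 71154667 estimated counts. Foxa1 averaged 304.6 ± 26.2 FPKM with the HNF3α plasmid and 9.66 ± 0.259 FPKM without it (SD, n = 3 each), where FPKM is fragments per kilobase of transcript scaled to library size. Of 6 epithelial markers, 6 exceeded the detection floor of 12 counts (about 3 sequenced fragments) in every library. Of the 14 proximal tubule markers with a value, 11 or 12 did, but Slc5a2, the glucose transporter that marks the early proximal tubule, stayed under the floor in all 6 libraries, and Vil1, a brush border gene, was at 0 in 4 of them. Hnf3a replicates 2 and 3 stood apart, with 14 of 14 macrophage markers and 12 of 12 fibroblast markers above the floor, against 4 to 6 and 2 to 5 in the other libraries. The summed level of the fibroblast markers was 10.6 and 12.6 FPKM in those 2 libraries and 1.97 to 2.59 FPKM elsewhere. The summed level of the macrophage markers was 37.7 to 45.6 FPKM in the Hnf3a group and 51.3 to 54.1 FPKM in the pcDNA group, and Cd14, an abundant gene of that list, fell (log2 fold change -0.69). Red blood cell markers ranged from 0.0217 FPKM in pcDNA replicate 3 to 1.69 FPKM in Hnf3a replicate 3.

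The 10 genes spanned a wide range of levels. Gpx4, which reduces lipid peroxides with glutathione, was the most abundant at 58.1 FPKM on average over the 6 libraries. It was followed by Txnrd1 (thioredoxin reductase) at 35.9 FPKM, Hmox1 (haem oxygenase) at 29.3 FPKM and Nfe2l2 at 22.1 FPKM. Next came the subunits of glutamate-cysteine ligase, the first enzyme of glutathione synthesis, with Gclm (the modifier subunit) at 13.1 FPKM and Gclc (the catalytic subunit) at 9.15 FPKM. Sod2 (the mitochondrial superoxide dismutase), Slc7a11 (the cystine importer subunit) and Srxn1 (sulfiredoxin, which repairs overoxidised peroxiredoxins) lay close together at 4.50, 3.78 and 3.68 FPKM. Their ranges over the 6 libraries overlapped between neighbours in the order, whereas every higher neighbouring pair was separated in all libraries. Nqo1, the quinone reductase that is often used as a readout of NRF2, was last at 0.243 FPKM. It had only 12 to 37 counts per library, or about 3 to 9.25 fragments, and Hnf3a replicate 2 did not exceed the floor. Among the 17824 genes that passed the filter on low counts, Gpx4 stood at percentile 95.5 of level, Srxn1 at 51.7 and Nqo1 at 17.3. All 10 genes passed that filter.

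**Figure D1:**
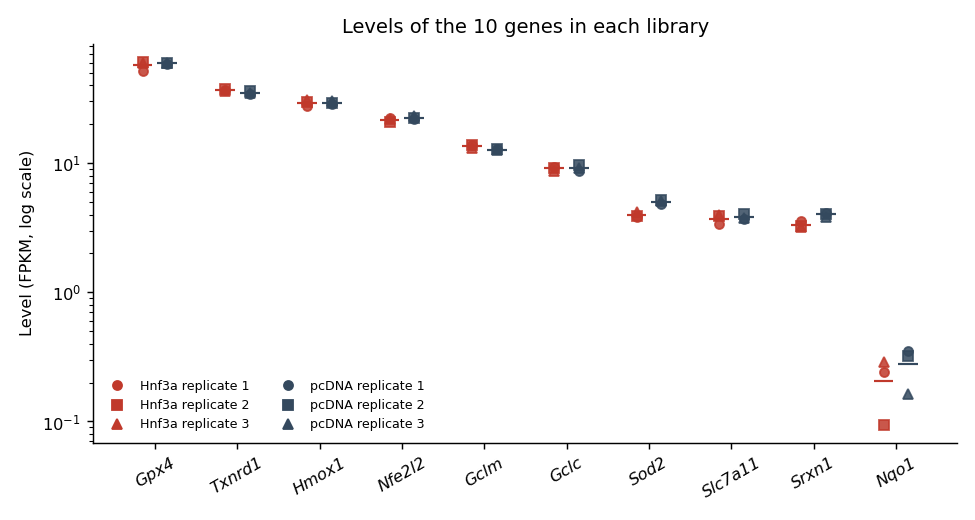
Level of each gene in FPKM (log axis) in each of the 6 libraries, ordered from the most to the least abundant; points are libraries, short lines are group means. Libraries of both groups lie close together for most genes. Sod2, Srxn1 and, by a small margin, Gclm are set apart by group, and Nqo1 is scattered near the floor.

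To see what the genes share in sequence, promoters from RefSeq (build GRCm38.p6, 250 bases before to 50 bases after the annotated start) were searched on both strands for TGACNNNGC, the core of the antioxidant response element, whose first 4 letters also open the AP-1 site. Of the 10 genes, 8 matched a promoter by symbol (all but Hmox1 and Gclc), with 13 windows in all. The core was found in 4 of the 13 windows, those of Nfe2l2, Srxn1, Gclm and Txnrd1, and in 12.4% of all 32851 promoter windows. These 4 matches are shown because the letters searched are the core of the element that NRF2 binds. Each is given 5′ to 3′ on the strand of the gene, with the match in capitals and 10 bases to either side.
Nfe2l2 (chr2:75704885-75704913, minus strand): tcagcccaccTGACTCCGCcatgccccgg
Srxn1 (chr2:152105542-152105570, plus strand): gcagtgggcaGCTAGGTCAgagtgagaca
Gclm (chr3:122245413-122245441, plus strand): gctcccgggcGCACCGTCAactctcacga
Txnrd1 (chr10:82859104-82859132, plus strand): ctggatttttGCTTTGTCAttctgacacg
The Nfe2l2 match reads in the forward direction and the other 3 lie on the opposite strand to their gene. Counted in bases from the start site, the match lay at -240 in Nfe2l2, at -134 in Gclm, at -92 in Txnrd1 and at 28 in Srxn1. The forkhead core, searched as TGTTTAC and TATTTAC, occurred in 1 of the 13 windows, that of Slc7a11, and in 6.54% of all windows.
Slc7a11 (chr3:50443829-50443855, minus strand): cctggttcccTGTTTACttcttctgga
A match describes the letters only, and no binding was measured in these libraries.

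The comparison asked which of the 10 transcripts differed between cells with the HNF3α plasmid and cells with the empty one. Sod2 was the single gene past the threshold (adjusted p under 0.05 in edgeR's quasi-likelihood test over all 17824 genes) and it fell. Over all tested genes 2.13% were lower, 1.04% were higher and 3.17% passed in either direction. No gene of the 10 was called higher, while 3 of 10 had an unadjusted p under 0.05 in edgeR, as did 13.5% of all tested genes, and DESeq2 and limma likewise called Sod2 and no other. The median log2 fold change of the 10 was -0.056, against 0.00085 over all tested genes, and 7 of the 10 lay within 0.1 of zero on the log2 scale, as did 53.8% of all tested genes. The 3 libraries of one group lay wholly on one side of the other group for 3 of the 10 (Sod2, Srxn1 and Gclm) and for 18.9% of all that were tested. In bulk RNA, fewer cells of a kind and less RNA per cell cannot be told apart.

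**Figure D2:**
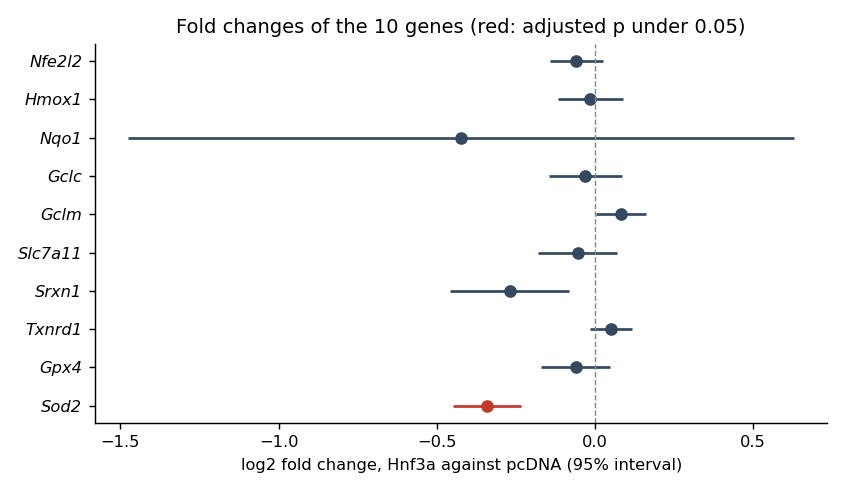
log2 fold change of each gene in the Hnf3a group against the pcDNA group, with 95% intervals from the edgeR fit. Sod2 at -0.34 is the one gene called, Srxn1 at -0.27 and Gclm at 0.083 have intervals that leave out zero without passing the adjusted threshold, and Nqo1 has the widest interval.

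Nfe2l2 itself (ENSMUSG00000015839, chromosome 2, 75675513 to 75704641, minus strand, 5 exons in its longest transcript) showed no difference past the threshold. It was at 22.3, 20.9 and 21.8 FPKM in Hnf3a replicates 1, 2 and 3 and at 21.8, 22.4 and 23.2 FPKM in pcDNA replicates 1, 2 and 3. The groups overlapped, with Hnf3a replicate 1 inside the pcDNA range. The log2 fold change was -0.059 ± 0.039 (SE; adjusted p 0.59, edgeR), and its 95% interval ran from -0.14 to 0.025. A small nuclear RNA gene overlaps Nfe2l2. Of its negative regulators, Keap1 had a log2 fold change of -0.11 (adjusted p 0.24, edgeR) and Bach1, a repressor that competes with NRF2 for the same elements, one of -0.15 (adjusted p 0.3, edgeR). In each of these 2 genes every Hnf3a library lay below every pcDNA library on the scaled counts, and the groups were likewise separated in 6 of the 12 genes of the NRF2 control list, in either direction, against 18.9% of all tested genes. Other genes of that list lay on either side of zero. The log2 fold change was 0.035 for Cul3, the scaffold of the KEAP1 ligase, and 0.062 for Btrc, a subunit of another ligase. For Rbx1 it was -0.041, and none of these genes passed.

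Glutathione synthesis starts with cystine uptake by the transporter whose light chain is Slc7a11, and its first committed step is the ligase of Gclc and Gclm. Slc7a11 (ENSMUSG00000027737, chromosome 3) was at 3.37, 3.87 and 3.93 FPKM in the Hnf3a libraries and at 3.71, 4.06 and 3.76 FPKM in the pcDNA libraries. Hnf3a replicate 1 was the lowest of the 6 and the groups overlapped (log2 fold change -0.054, 95% interval -0.18 to 0.071, adjusted p 0.784, edgeR). Gclc (ENSMUSG00000032350, chromosome 9) was at 9.30, 9.21 and 8.75 FPKM against 8.73, 9.75 and 9.17 FPKM, with its lowest and highest values both among the pcDNA libraries. The log2 fold change was -0.030 (95% interval -0.15 to 0.086, adjusted p 0.897, edgeR). Gclm (ENSMUSG00000028124, chromosome 3) was at 13.8, 13.9 and 13.0 FPKM in the Hnf3a libraries and at 12.8, 12.8 and 12.6 FPKM in the pcDNA libraries. Here each Hnf3a library was above every pcDNA library, by a small margin. The log2 fold change of Gclm was 0.083 ± 0.036 (SE; unadjusted p 0.0393, adjusted p 0.329, edgeR). Annotated genes overlap Gclm and Slc7a11, and no source states whether strand entered the counting, so part of those counts is uncertain.

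In the thioredoxin arm, Txnrd1 returns thioredoxin to its reduced form and Srxn1 restores overoxidised peroxiredoxins. Txnrd1 (ENSMUSG00000020250, chromosome 10) was at 36.7, 37.2 and 35.9 FPKM in the Hnf3a libraries and at 34.4, 36.0 and 35.01 FPKM in the pcDNA libraries. Hnf3a replicate 3 lay just under pcDNA replicate 2, so the groups overlapped, and the log2 fold change of 0.051 (95% interval -0.015 to 0.12) did not pass (adjusted p 0.536, edgeR). The coding gene Eid3 overlaps Txnrd1 on the same strand. Srxn1 (ENSMUSG00000032802, chromosome 2, 152105516 to 152109322, plus strand, 2 exons) was at 3.59, 3.23 and 3.21 FPKM in the Hnf3a libraries and at 4.13, 4.06 and 3.84 FPKM in the pcDNA libraries. All 3 Hnf3a libraries were below all 3 pcDNA libraries. The log2 fold change was -0.27 ± 0.087 (SE), for an unadjusted p of 0.00852 and an edgeR adjusted p of 0.15, so that Srxn1 did not pass over all genes. Its adjusted p stayed between 0.0867 and 0.638 over 16 alternative settings and it passed in none of them; without Hnf3a replicates 2 and 3 the log2 fold change was -0.16.

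The enzymes most often taken as NRF2 readouts gave no call. Hmox1 (ENSMUSG00000005413, chromosome 8) was at 27.4, 29.7 and 30.6 FPKM in the Hnf3a libraries and at 28.5, 29.3 and 30.2 FPKM in the pcDNA libraries, with the pcDNA values inside the Hnf3a range. Its log2 fold change was -0.013 (95% interval -0.12 to 0.089, adjusted p 0.953, edgeR). HMOX1 is also abundant in macrophages, and Hnf3a replicates 2 and 3, in which all 14 macrophage markers exceeded the floor, were the higher of the Hnf3a libraries; the part of those cells in the Hmox1 level was not tested. Nqo1 (ENSMUSG00000003849, chromosome 8) gave 28, 12 and 33 counts with the HNF3α plasmid (replicates 1, 2 and 3) and 37, 37 and 19 without it, so the groups overlapped. With so few fragments, the log2 fold change of -0.42 had a standard error of 0.49 (adjusted p 0.806, edgeR). Its 95% interval ran from -1.48 to 0.63, so neither a fall nor a rise within it can be set aside at this depth. Leaving out 1 library moved the log2 fold change between -0.71 (without Hnf3a replicate 3) and -0.072 (without Hnf3a replicate 2).

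Gpx4 and Sod2 act on oxidants directly, Gpx4 on lipid hydroperoxides and Sod2 on superoxide in the mitochondrial matrix. Gpx4 (ENSMUSG00000075706, chromosome 10) was at 51.3, 60.5 and 59.3 FPKM in the Hnf3a libraries and at 58.5, 59.6 and 59.2 FPKM in the pcDNA libraries. Hnf3a replicate 1 alone lay outside the narrow band of the other 5 libraries. The log2 fold change was -0.060 (95% interval -0.17 to 0.050, adjusted p 0.701, edgeR), it was 0.0062 without Hnf3a replicate 1, and -0.20 (adjusted p 0.0580, edgeR) with that replicate as the only Hnf3a library, where the pcDNA libraries alone supply the spread.

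Sod2 (ENSMUSG00000006818) spans positions 13006846 to 13037398 of chromosome 17 (plus strand), with 5 exons in its longest transcript. It was at 3.84, 3.90 and 4.21 FPKM in Hnf3a replicates 1, 2 and 3 and at 4.80, 5.15 and 5.09 FPKM in pcDNA replicates 1, 2 and 3. The highest Hnf3a library was below the lowest pcDNA library. On scaled counts the Hnf3a libraries stood at 76.4%, 77.1% and 83.5% of the pcDNA mean, and the pcDNA libraries at 96.0%, 102.6% and 101.3%. Sod2 fell by 21.0% (95% interval -26.6% to -15.0%), for a log2 fold change of -0.34 ± 0.049 (SE) and an edgeR adjusted p of 0.0013, which ranked 143 among the tested genes. The call stood in all 16 alternative settings, with an adjusted p from 1.81e-07 to 0.0489, and the log2 fold change lay between -0.39 and -0.27. Hnf3a replicate 1, in which 5 of 12 fibroblast and 4 of 14 macrophage markers exceeded the floor, had the lowest Sod2 of the 6 libraries. With that library alone as the Hnf3a group, again with the spread of the pcDNA libraries, the log2 fold change was -0.39 (adjusted p 0.0145, edgeR).

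Sod2 is known as a target of NF-κB as well as an antioxidant enzyme. Its RefSeq promoter (GRCm38.p6, chr17:13007589-13007888, plus strand, 300 bases) is printed because Sod2 carries the one call among the 10 genes. The capitals mark a match to the NF-κB consensus, which lay at base -83 from the start site.
Sod2 promoter: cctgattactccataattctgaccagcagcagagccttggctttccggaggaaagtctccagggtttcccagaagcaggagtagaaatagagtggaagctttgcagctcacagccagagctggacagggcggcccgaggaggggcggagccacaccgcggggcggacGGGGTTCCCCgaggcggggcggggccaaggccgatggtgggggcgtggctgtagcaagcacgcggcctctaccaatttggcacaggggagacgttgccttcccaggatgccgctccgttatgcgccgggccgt
Searched on both strands, the NF-κB consensus was present in 1 of the 13 windows of these genes, that of Sod2, and in 4.51% of all windows. No match to the antioxidant response core or to the forkhead cores was found in the Sod2 window. This window lies inside the span of the gene, which starts at 13006846. Whether any of these letters bears on the fall of Sod2 was not tested.

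**Figure D3:**
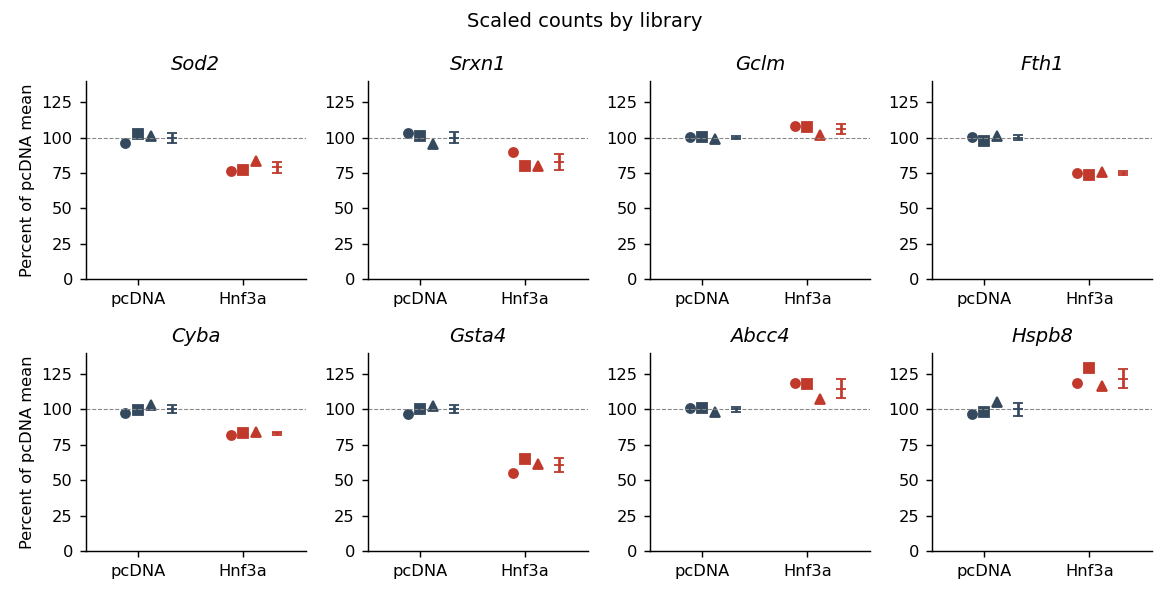
Scaled counts of 8 genes in each library as a percent of the pcDNA mean (axis from 0); points are libraries and the bars beside them give the mean ± SD of 3. The Hnf3a libraries of Sod2, Fth1, Cyba and Gsta4 lie under every pcDNA library, those of Abcc4 and Hspb8 lie above, and Srxn1 and Gclm are separated by group but did not pass the adjusted threshold.

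Partner genes were set against each other within each library, as ratios of FPKM. The ratio of Sod2 to Sod1, the cytosolic dismutase, was 0.134, 0.128 and 0.141 with the HNF3α plasmid and 0.162, 0.177 and 0.175 without it, so the groups did not overlap. Sod1 alone had a log2 fold change of 0.011 (adjusted p 0.946, edgeR). The ratio of Gclc to Gclm was 0.675, 0.664 and 0.672 with the HNF3α plasmid and 0.683, 0.763 and 0.729 without it, again without overlap. Both ratios gave a p of 0.1 in a two-sided exact permutation test, the smallest that 3 against 3 can give, and 0.3 when adjusted over the 6 ratios compared. The other 4 ratios overlapped between the groups. Txnrd1 was 12.2 ± 0.251 times the level of Txnrd2, the mitochondrial reductase, in the Hnf3a group and 12.1 ± 1.10 times in the pcDNA group (SD, n = 3). Hmox1 was 1.53 ± 0.111 and 1.59 ± 0.0234 times the level of Hmox2, the constitutive haem oxygenase. Gpx4 was 0.588 ± 0.0512 and 0.591 ± 0.0122 times the level of Gpx1. Slc7a11 was 0.0420 ± 0.00351 and 0.0454 ± 0.00264 times the level of Slc3a2, its heavy chain, which also pairs with other transporters.

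The wider pathway was read from 7 lists of 104 genes, of which 101 were tested. Of these, 6 passed the threshold, 3 higher (Bach2, Abcc4 and Hspb8) and 3 lower (Fth1, Cyba and Gsta4), which is 5.94% against 3.17% over all genes. The median log2 fold change of the 101 was 0.023. Fth1, Cyba and Gsta4 passed in all 16 alternative settings, whereas Abcc4 and Hspb8 passed in 10 of 16 and Bach2 in 5 of 15. Without Hnf3a replicate 2, pcDNA replicate 1 or pcDNA replicate 2, only Fth1, Cyba and Gsta4 were called, 3 genes in place of 6. Abcc4 also lost the call without pcDNA replicate 3, and Hspb8 without Hnf3a replicates 2 and 3 together, where 4 genes of the lists passed.

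Fth1, the heavy chain of the iron store ferritin, fell from 199.9 ± 3.77 FPKM in the pcDNA group to 150.7 ± 2.25 FPKM in the Hnf3a group (SD, n = 3), for a log2 fold change of -0.42 ± 0.027 (SE; adjusted p 1.18e-06, edgeR). Ftl1, the light chain, was at 328.4 ± 10.9 FPKM against 304.3 ± 9.52 FPKM and did not pass (log2 fold change 0.10, adjusted p 0.147, edgeR). Both ferritin chains have processed pseudogenes, so how shared reads were assigned is uncertain. Ferritin chains are known targets of NRF2, and Fth1 is also induced by NF-κB. The other 7 genes of the list of haem breakdown and ferritin (9 tested, 1 lower, median log2 fold change -0.023) did not pass, among them Hmox2 and the biliverdin reductases Blvra and Blvrb.

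Of 27 tested genes in the list of other NRF2 targets, 2 rose and 1 fell, and the median log2 fold change was 0.026. Gsta4, a glutathione transferase that conjugates the lipid peroxidation product hydroxynonenal, fell from 25.1 ± 0.750 FPKM to 15.3 ± 1.34 FPKM (SD, n = 3), for a log2 fold change of -0.72 (adjusted p 1.98e-05, edgeR). Abcc4, an efflux pump, and Hspb8, a small heat shock protein, rose by 0.20 and 0.28 on the log2 scale (adjusted p 0.0178 and 0.0158, edgeR). Abcc1, with a log2 fold change of -0.14, lay just short of the threshold (adjusted p 0.0508, edgeR). It passed in 4 of 16 alternative settings. The enzymes of the list that make NADPH did not pass: G6pdx had a log2 fold change of 0.10, Pgd one of -0.056, Me1 one of 0.074 and Idh1 one of 0.12. Nor did Taldo1 and Tkt, of the non-oxidative pentose phosphate branch, at -0.057 and 0.026. The most abundant genes of the list, Gstp1 (85.002 FPKM in the Hnf3a group and 78.2 FPKM in the pcDNA group) and Esd, were not called either. Gsta and Gstm genes belong to families with similar sequences, which can share reads.

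In the list of NRF2 control genes, 1 of 12 passed. Bach2, a relative of Bach1 that represses in lymphoid cells, had 90, 53 and 66 counts with the HNF3α plasmid against 26, 23 and 27 without it, for a log2 fold change of 1.38 ± 0.33 (SE; adjusted p 0.0406, edgeR). It lost the call when any 1 library was left out, and other annotated genes overlap it. Sqstm1, which sequesters KEAP1, and Nfe2l1, the NRF2 paralogue, were the most abundant of the list at 77.2 and 75.8 FPKM in the Hnf3a group and 79.96 and 77.4 FPKM in the pcDNA group, and neither passed. The list of selenoprotein synthesis and ferroptosis control had 1 of 16 past the threshold. Cyba, a membrane subunit of NADPH oxidases, which generate superoxide, fell from 69.3 ± 2.13 FPKM to 57.8 ± 1.0005 FPKM (SD, n = 3), for a log2 fold change of -0.27 (adjusted p 0.00104, edgeR). The catalytic subunit Nox4 was at 0.301 and 0.322 FPKM in the Hnf3a and pcDNA groups, and Cybb had 0, 77 and 59 counts with the HNF3α plasmid against 11, 16 and 14 without it, highest where the macrophage markers were above the floor. Cybb did not pass (adjusted p 0.643, edgeR) except without Hnf3a replicate 1. A gene on the opposite strand overlaps Cyba. Tfrc, the transferrin receptor, had a log2 fold change of 0.0029.

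The remaining 3 lists gave no call in edgeR with the settings used throughout, and their shares at an unadjusted p under 0.05 can be read against 13.5% over all genes. In glutathione synthesis and recycling, 0 of 12 passed in edgeR (3 at an unadjusted p under 0.05, and 0 in DESeq2 and limma), and the median log2 fold change was 0.051. Its most abundant genes were Slc3a2 at 88.7 and 84.7 FPKM and Gsr, glutathione reductase, at 44.9 and 43.3 FPKM in the Hnf3a and pcDNA groups. In the thioredoxin and peroxiredoxin list, 0 of 14 passed in edgeR and limma (2 at an unadjusted p under 0.05). Txnip, an inhibitor of thioredoxin, had a log2 fold change of 0.38 and lay just short of the threshold (adjusted p 0.0567, edgeR). It passed in 4 of 16 alternative settings, which were DESeq2 and edgeR with the FPKM filter, with total-count scaling and with counts divided by 4. Txn1 was at 300.9 and 302.5 FPKM and Prdx1 at 139.95 and 142.6 FPKM in the Hnf3a and pcDNA groups. Among dismutases, catalase and glutathione peroxidases, 0 of 11 tested genes passed in edgeR (3 at an unadjusted p under 0.05, and 0 in DESeq2 and limma), led in level by Gpx1 at 97.0 and 100.03 FPKM and Sod1 at 29.6 and 29.2 FPKM. Sod3 and Gpx7 did not pass the filter on low counts.

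**Figure D4:**
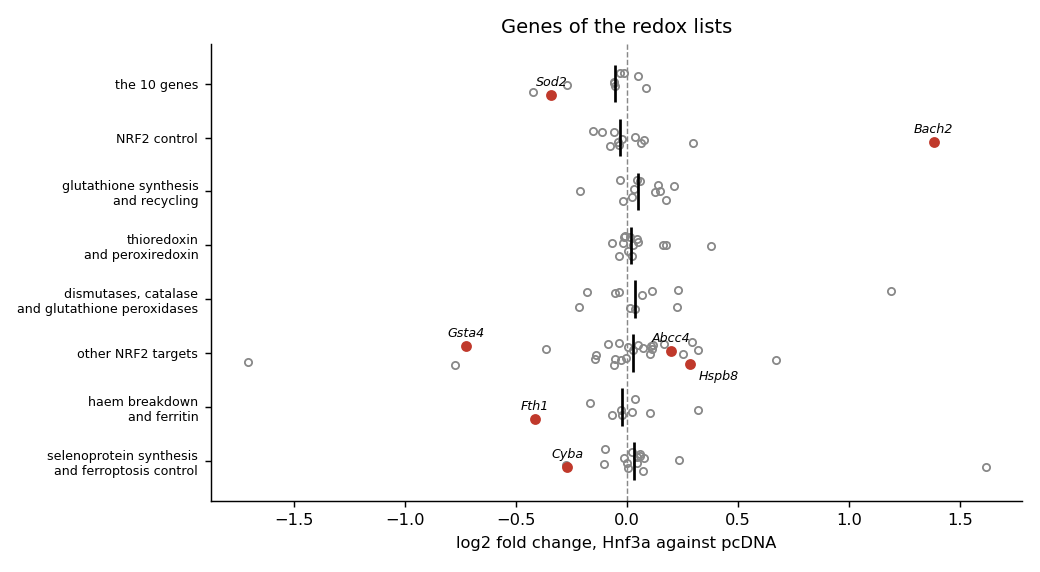
log2 fold change of each tested gene in the 10 genes and in the 7 pathway lists; filled red points passed the adjusted threshold and are named, open points did not, and the black bar is the median of the list. The medians lie between -0.056 and 0.051, close to zero for every list.

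The table's own Gene Ontology annotation gave a wider set. Of 300 genes annotated to the response or cellular response to oxidative stress, cell redox homeostasis, glutathione metabolic process or cellular oxidant detoxification, 276 were tested, and all 10 genes described here were among them. There, 18 passed, 5 higher and 13 lower (6.52% against 3.17% over all genes), and the median log2 fold change was -0.00097. With scaling to total counts 7 were higher and 10 lower. The count was 26 in DESeq2 (7 higher and 19 lower) and 24 with counts divided by 4 (7 higher and 17 lower). In limma it was 10 and 9 with a pseudocount of 0.1 and of 1. Without 1 library it ran from 12 (without pcDNA replicate 2) to 19 (without Hnf3a replicate 1 or 3). The lower genes included Lcn2 (lipocalin 2, which binds iron carriers; log2 fold change -0.83), Zc3h12a (an RNase that degrades inflammatory transcripts; -0.86), Gsto1 (an omega-class glutathione transferase; -0.38), Nfkb1 (an NF-κB subunit; -0.32) and Slc11a2 (an iron importer; -0.25). The adjusted p of these 5 genes in edgeR was at most 0.00116, and they passed in all 16 alternative settings except for Slc11a2, which passed in 15. Among the other lower genes, Sod2 and Gsta4 passed in all 16, but Aldh3b1 in 5 and Map2k1 and Nr4a2 in 6. Hp passed in 10, and Il6 and Ncoa7 in 13. The higher genes included Prxl2c (log2 fold change 0.52), Etv5 (0.36) and Trp53inp1 (0.28), with edgeR adjusted p of 0.00754, 0.0163 and 0.0115, which passed in 13, 10 and 11 of 16 alternative settings. The other 2 had few counts in the pcDNA group. Hpgds, a prostaglandin D synthase, had 85, 150 and 120 counts with the HNF3α plasmid against 12, 20 and 14 without it (adjusted p 0.000122, edgeR; 15 of 15 settings). Dgkk, a diacylglycerol kinase, had 101, 151 and 65 against 0, 0 and 4 (adjusted p 0.000172, edgeR; 14 of 15 settings). By term, 6 of 117 genes of the response to oxidative stress passed, 5 of 74 of its cellular response, 4 of 58 of oxidant detoxification, 3 of 42 of glutathione metabolism and 1 of 58 of redox homeostasis.

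**Figure D5:**
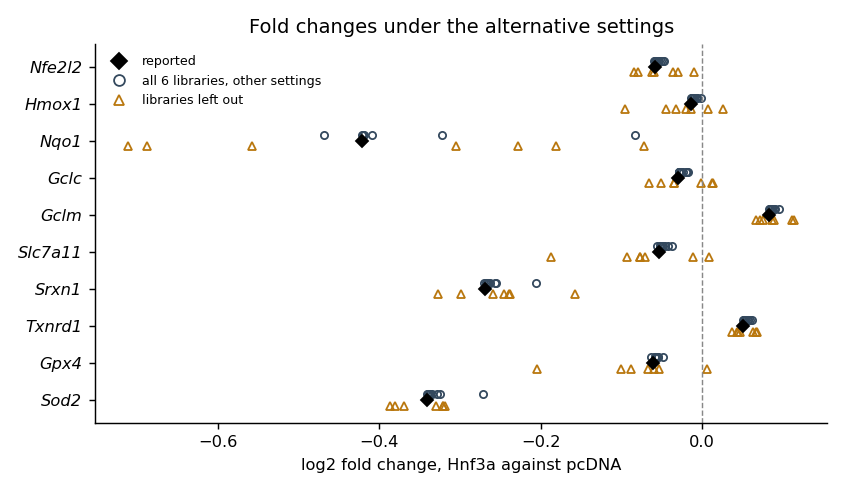
log2 fold change of each gene as reported (diamonds), under 9 other settings with all 6 libraries (circles) and with libraries left out (triangles). Sod2 stays between -0.39 and -0.27, while Hmox1, Gclc, Slc7a11 and Gpx4 reach both sides of zero.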

How the data were processed

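Polyadenylated RNA of 6 TKPTS samples was sequenced with strand-marked libraries carrying unique molecular identifiers. The submitters' processing notes name cutadapt 1.9, HISAT2 2.0.4, UMI-tools, StringTie 1.3.4d, DESeq2 and edgeR and the build mm10; the annotation and the strand setting of the counting are not given in the sources used here. The authors deposited 1 table that holds, per gene and for every library, an estimated count beside an FPKM value. Estimated counts are whole numbers there, and since more genes sat at 4 counts than at 3 or 5, 1 fragment was taken as about 4 counts, which sets the floor of 12 (counting error only). Exons and overlaps come from GENCODE vM21, in which 29514 of the genes were found, 26729 of them at the same coordinates.

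All genes were fitted together in edgeR 4.0.16 (R 4.3.3) with filterByExpr, TMM, estimateDisp, robust glmQLFit and glmQLFTest, two-sided and without covariates. Adjusted p-values follow Benjamini and Hochberg over 17824 genes (threshold 0.05). Standard errors are the absolute log2 fold change over the square root of F. Levels are compared between genes only in FPKM. Alternatives used DESeq2 1.42.0 and limma 3.58.1 on log2(FPKM + 0.1) and log2(FPKM + 1), other filters and scalings, a replicate block, counts divided by 4 and left-out libraries. The procedure was tested on simulated data. There edgeR recovered 81 of 100 genes changed by 1 on the log2 scale and 51 of 100 with a smaller change, with 7 false calls. Every simulated gene had the same spread beyond counting error, and no simulated library carried extra macrophage or fibroblast transcripts. These figures may therefore not carry over to the real libraries. The 10 genes, the pathway and marker lists and the tests were chosen with earlier results of these data known. Besides the 10 genes, Foxa1, Keap1 and Bach1, list genes were named if past the threshold without overlap (up to 4 each way by p) or as the 2 most abundant of a list; others named, and the promoter motifs, were chosen after values were seen.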

Additional observations from a re-analysis of the deposited data

How the results depend on the processing

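Sod2 was the 1 gene of the 10 past the threshold under all 16 other settings, of which 1, without Hnf3a replicates 2 and 3, was added after seeing the data. Over all genes 565 passed, against 265 and 248 in limma on log2(FPKM + 0.1) and log2(FPKM + 1), 263 to 643 without 1 library (263 without Hnf3a replicate 2, and 286, 267 and 349 without pcDNA replicates 1, 2 and 3) and 322 without Hnf3a replicates 2 and 3. Of the pathway lists 6 genes passed, against 10 in the DESeq2 Wald test, 3 in each limma fit and 3 to 7 without 1 library (3 without Hnf3a replicate 2, pcDNA replicate 1 or pcDNA replicate 2). Without 1 library, the log2 fold change ran from -0.045 to 0.026 for Hmox1, from -0.065 to 0.013 for Gclc, from -0.093 to 0.0081 for Slc7a11 and from -0.10 to 0.0062 for Gpx4, and stayed below zero from -0.084 to -0.030 for Nfe2l2 and from -0.71 to -0.072 for Nqo1. For Gclc it was 0.012 without Hnf3a replicates 2 and 3. None of these 6 passed in any setting, and the cause of the shifts was not tested. Fewer libraries are fitted where some are left out. Nqo1 gave no value with at least 1 FPKM in 3 libraries or with counts divided by 4, since it did not pass those filters. No sign that replicate numbers pair the libraries was seen (correlations of deviations -0.041, -0.010 and 0.0100). Such values cannot show that libraries of the same number were prepared apart. With the replicate block 463 genes passed over all genes, Sod2 among the 10 and 5 of the list genes. Bach2 was then at an adjusted p of 0.0685 (edgeR). Depth limits Nqo1, at about 3 to 9.25 fragments.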
